A study of Mus musculus with 8 samples.

Results

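The genes described here are 10 components of basement membrane and extracellular matrix, Col4a1, Col4a2, Lamc1, Lamb2, Nid1, Hspg2, Bgn, Dcn, Sparc and Fn1, taken by symbol from the 23284 genes of a table of raw read counts. They were chosen by earlier results of the same comparison, that is, on their measured counts in the libraries described here. RNA came from LSK cells of mouse bone marrow, a fraction that lacks mature lineage markers, carries Sca-1 and c-Kit and holds stem cells and multipotent progenitors. All mice were on the C57BL/6 background and carried a green fluorescent protein reporter of histidine decarboxylase (Hdc), so the same transgene was present in both groups, and the sources used here give no age or sex. Cells were sorted by GFP into Hdc-GFPhi (n = 4 libraries) and Hdc-GFPlo (n = 4 libraries), with 2000 cells per library. Labels of 2 Hdc-GFPhi libraries differ from the rest: the cell type of replicate 4 is given as GFP+ and not as GFPhi, and the mice of replicate 2 are named after the GFPhi fraction. Both were kept in the group of their titles. The sort has no GFP-negative group, and no label says that the libraries came from separate animals, so the spread between them may be in part technical.

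Basement membranes are thin sheets of matrix on which endothelial, epithelial and muscle cells rest. They are carried by a network of type IV collagen and another of laminin, with nidogen and perlecan as bridges between them, while small proteoglycans, SPARC and fibronectin belong to the wider matrix. In bone marrow these proteins are known chiefly from sinusoidal vessels and stroma, and megakaryocytes also make several of them. The collagen IV genes Col4a1 and Col4a2 lie head to head and are transcribed away from each other.

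The start of these collagen genes is shown because both had nearly the same difference between the fractions. In RefSeq promoter windows on GRCm38.p6, which hold 250 bases before and 50 after each annotated start, Col4a1 starts at position 11312826 on the minus strand of chromosome 8 and Col4a2 at position 11312805 on the plus strand. The windows share 78 bases, and both genes begin on the same 22 bases, chr8:11312805-11312826, where the first exon of each overlaps the other. These 22 bases are given 5′ to 3′ as each gene reads them.
Col4a1: ttggagacgccgcccgcgcact
Col4a2: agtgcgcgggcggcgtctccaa

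Bgn had a difference of the same size, and its upstream bases are shown for comparison. The 250 bases before its annotated start, chrX:73483351-73483600 on the plus strand, overlap no annotated exon. Capitals mark the GC box GGGCGG read on either strand, which occurs 3 times, in 2 cases with overlap.
Bgn: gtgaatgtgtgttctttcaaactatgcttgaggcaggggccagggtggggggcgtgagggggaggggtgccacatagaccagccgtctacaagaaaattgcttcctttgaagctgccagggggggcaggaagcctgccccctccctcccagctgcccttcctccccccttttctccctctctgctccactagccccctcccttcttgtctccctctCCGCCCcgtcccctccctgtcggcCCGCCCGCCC

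Promoter windows were matched for 7 members, leaving Lamc1, Fn1 and Dcn without one. A GC box was present in 5 of them (Col4a1, Col4a2, Bgn, Nid1 and Hspg2), and in 35.7% of all 32851 windows of 300 bases. The only GC box of the Col4a1 window lies in the 22 bases shared with Col4a2, where it is not marked. That site therefore counts for both genes. The CCAAT box, also read on both strands, was present in Col4a1, Col4a2 and Nid1, and in 37.4% of all windows. None of the 7 windows held TATAAA, the GATA motif AGATAA or the AP-1 motif TGACTCA on either strand, against 13.6%, 11.2% and 5.2% of all windows. GC content was 74% for Col4a1, 73.7% for Col4a2 and 63.7% for Bgn, against a median of 52.7%, and 44% for Lamb2. These matches describe letters in the windows and no binding was measured.

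The libraries held 16726179 to 23051277 counts each. The sorted cells carried the transcripts that define LSK cells, with Kit at 1460 ± 110 CPM in Hdc-GFPhi libraries (CPM, counts scaled to library size with TMM factors; mean ± SD, n = 4) and 1200 ± 315 CPM in those of Hdc-GFPlo, and Ly6a, which encodes Sca-1, at 125 ± 19 and 119 ± 16.9 CPM. The fractions differed in other progenitor markers, since 6 of the 11 LSK markers reported here had an unadjusted p under 0.05 in edgeR (10.9% of all tested genes did), although none of the 11 passed the adjusted threshold. DESeq2 and limma voom each called those named next, 5 higher and 1 lower in Hdc-GFPhi. Chosen after their values were seen, the stem cell genes Procr (58.5 ± 12.5 and 36.4 ± 7.51 CPM in Hdc-GFPhi and Hdc-GFPlo), Hlf (566 ± 46.2 and 417 ± 26.9), Mecom (139 ± 15.9 and 92.8 ± 18.1) and Gata2 (185 ± 25.3 and 126 ± 16) had higher values in every Hdc-GFPhi library than in any Hdc-GFPlo library. Slamf1 was at 18 ± 3.24 and 10.3 ± 3.68 CPM, and Flt3, of lymphoid-primed progenitors, was at 876 ± 91 and 1240 ± 203 CPM. The part of these differences in the results below was not tested. Hdc-GFPhi replicate 4 (53.11) and Hdc-GFPlo replicate 1 (-31.28) lay at the ends of the first principal component of all tested genes. Hdc-GFPhi replicate 2 (39.15) and Hdc-GFPlo replicate 3 (-40.52) lay at the ends of the second. Over the 2629 tested genes with a transcript of at least 5000 bases, the median log2 deviation from the mean of all libraries was -0.23 for Hdc-GFPlo replicate 3, with the other 7 libraries between -0.03 and 0.10. Of the members, Col4a1, Col4a2, Lamc1, Lamb2, Nid1, Fn1 and Hspg2 have such long transcripts, and all 7 were at their lowest Hdc-GFPlo value in that library.

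The members fell into 3 kinds of pattern. Col4a1, Col4a2 and Bgn were about 2-fold higher in Hdc-GFPhi, with no overlap between the fractions. Fn1 was lower in Hdc-GFPhi in comparison with 3 of the 4 Hdc-GFPlo libraries. Lamc1 was at the same mean level in both fractions, Lamb2 and Sparc overlapped, and Nid1, Hspg2 and Dcn had few reads or almost none. Of 10 members, 8 had enough reads to be tested with edgeR over all genes, and 7 of these had a positive log2 fold change (Hdc-GFPhi over Hdc-GFPlo) and 1 a negative one. Col4a1 and Col4a2 passed an adjusted p of 0.05, as did 0.947% of all 13300 tested genes (0.241% higher and 0.707% lower in Hdc-GFPhi), and Col4a1, Col4a2 and Bgn had groups that did not overlap, as did 6.92% of all tested genes (3.38% higher and 3.54% lower). This comparison was itself used to choose the members, so these counts, and the fold changes and intervals below, are a description and not a test. In sorted bulk samples, fewer cells that express a gene and less RNA per cell cannot be told apart.

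Col4a1 and Col4a2 encode the chains that assemble into the most widespread form of type IV collagen. Col4a1 was at 122, 134, 119 and 107 CPM in Hdc-GFPhi replicates 1 to 4, and at 63.2, 67.8, 36 and 68.3 CPM in Hdc-GFPlo replicates 1 to 4. Every Hdc-GFPhi library was above every Hdc-GFPlo library, and Hdc-GFPlo replicate 3 was the lowest of all. The means were 120 ± 11.2 and 58.8 ± 15.4 CPM, a 2.05-fold difference (log2 fold change 1.03 ± 0.18 SE, 95% interval 0.65 to 1.42). Without Hdc-GFPlo replicate 3 the log2 fold change was 0.87, and after removal of a trend on GC content and transcript length it was 0.92.

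Col4a2 ran alongside at a slightly higher level. It was at 140, 180, 123 and 105 CPM in Hdc-GFPhi and at 60.3, 95.3, 43 and 69.9 CPM in Hdc-GFPlo, in replicate order. The groups again did not overlap, although Hdc-GFPlo replicate 2, the highest of its group, came close to Hdc-GFPhi replicate 4, the lowest of its own. The log2 fold change was 1.03 ± 0.22 (interval 0.55 to 1.51), with means of 137 ± 32 and 67.1 ± 21.8 CPM. With the GC content and length trend removed it was 0.87 on the log2 scale. Col4a1 missed the threshold in the fits that left out Hdc-GFPhi replicate 3 or replicate 1 of Hdc-GFPlo (log2 fold changes 1.05 and 1.07). Col4a2 missed it in 6 of the 8 fits that left out 1 library (log2 fold changes 0.87 to 1.08), and passed when Hdc-GFPhi replicate 4 or replicate 2 of Hdc-GFPlo was the one left out.

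The ratio of the pair did not separate the fractions. Col4a1 reads per kb of transcript, divided by Col4a2 reads per kb, came to 0.85, 0.73, 0.94 and 1.0 in Hdc-GFPhi replicates 1 to 4 and to 1.02, 0.69, 0.82 and 0.95 in Hdc-GFPlo replicates 1 to 4. The ranges of the fractions overlapped almost fully, and replicate 2 had the lowest ratio in each. Other type IV collagen chains had few reads. Col4a5, which pairs with other chains in kidney and muscle, had 19, 50, 40 and 29 reads in Hdc-GFPhi and 9, 32, 7 and 25 in Hdc-GFPlo. Col4a3, Col4a4 and Col4a6 were below the filter, with at most 26 reads in any library. These chains, the laminin chains below, Nid2, Pxdn, Lox and Mmp17 lie outside the rule for named genes and were chosen as partners or after their values were seen.

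**Figure D1:**
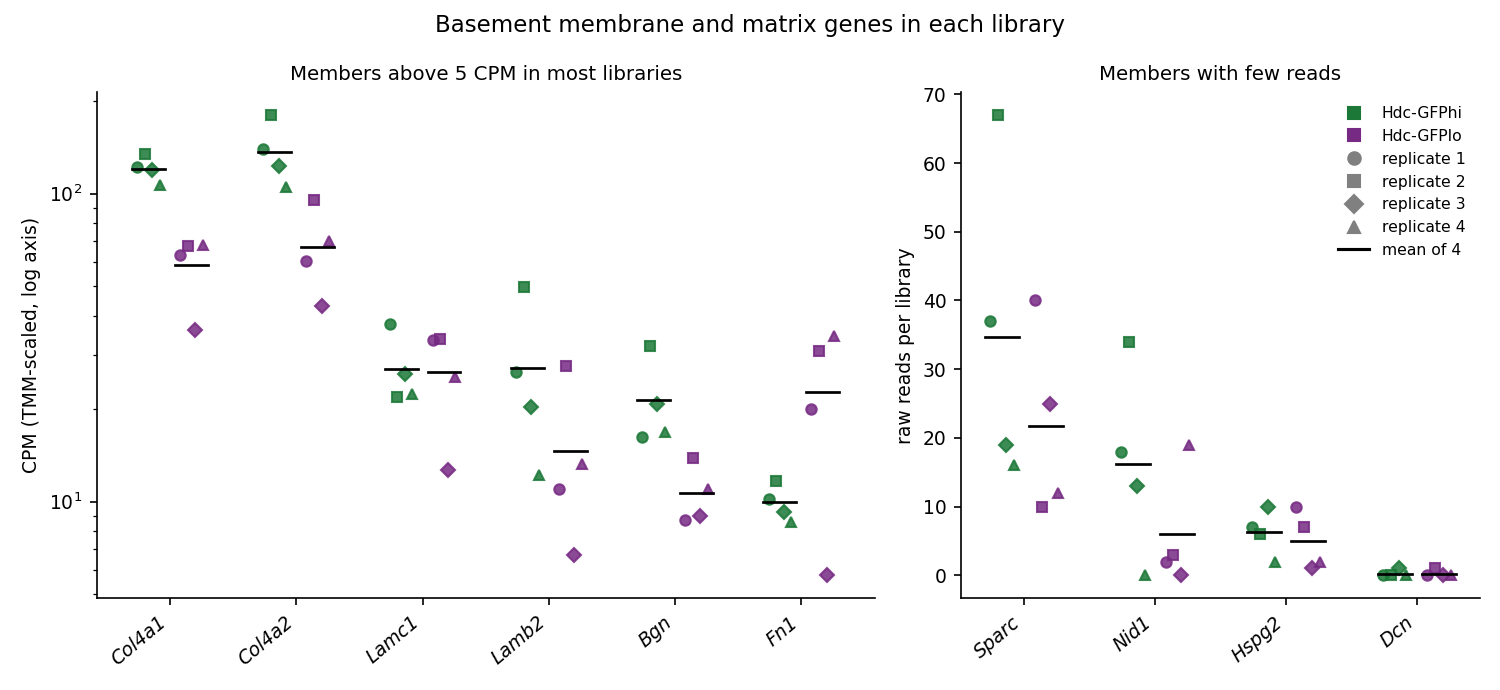
Values of the 10 members in each library, with Hdc-GFPhi in green, Hdc-GFPlo in purple, a marker shape per replicate number and a line at the mean of 4. The left panel shows TMM-scaled CPM on a log axis and the right panel raw reads: Col4a1, Col4a2 and Bgn separate the fractions, and the Hdc-GFPlo replicate 3 diamond is the lowest point of Fn1 at 5.76 CPM.

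Laminins are trimers of an alpha, a beta and a gamma chain. Lamc1, the gamma chain of most laminins, was at 37.8, 21.8, 26 and 22.3 CPM in Hdc-GFPhi and at 33.4, 33.8, 12.7 and 25.3 CPM in Hdc-GFPlo. The groups overlapped, and Hdc-GFPlo replicate 3 was lowest. The log2 fold change was 0.03 with an interval of -0.56 to 0.63, that is, 0.679-fold to 1.54-fold. Its sign was not stable, with values of -0.18 to 0.18 when 1 library was left out, -0.08 with limma voom and -0.02 with the GC content and length trend removed.

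Lamb2, a beta chain found at synapses, in kidney and around vessels, varied more. It was at 26.3, 49.7, 20.2 and 12.2 CPM in Hdc-GFPhi and at 11, 27.6, 6.7 and 13.2 CPM in Hdc-GFPlo. Replicate 2 was the highest library of each fraction, and the lowest Hdc-GFPhi library lay below 2 of the Hdc-GFPlo libraries. The mean difference was 1.86-fold (log2 fold change 0.89 ± 0.47, interval -0.14 to 1.92), and the log2 value was 0.42 when Hdc-GFPhi replicate 2 was left out, 1.39 when Hdc-GFPlo replicate 2 was and 0.67 when Hdc-GFPlo replicate 3 was.

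Per kb of transcript, the beta and gamma members stood well above any alpha chain. Lamb2 was at 4.81 ± 2.87 CPM per kb in Hdc-GFPhi and 2.60 ± 1.61 in Hdc-GFPlo, and Lamc1 at 3.54 ± 0.974 and 3.45 ± 1.29. The highest alpha chain was Lama5, at 0.46 ± 0.0626 and 0.318 ± 0.145 CPM per kb. Lama3 and Lama4 were lower still. Lama1 had no read in any library, which allows at most 0.133 to 0.178 CPM per library (3 counts, counting error only), and Lama2 had 1 read in all. Lamb1, a widespread beta chain, had 0 to 6 reads per library, and Lamb3 had 0.174 ± 0.191 and 0.207 ± 0.129 CPM per kb. Of these partner chains, Lama3, Lama4, Lama5 and Lamb3 had enough reads to be tested, and none was called.

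**Figure D2:**
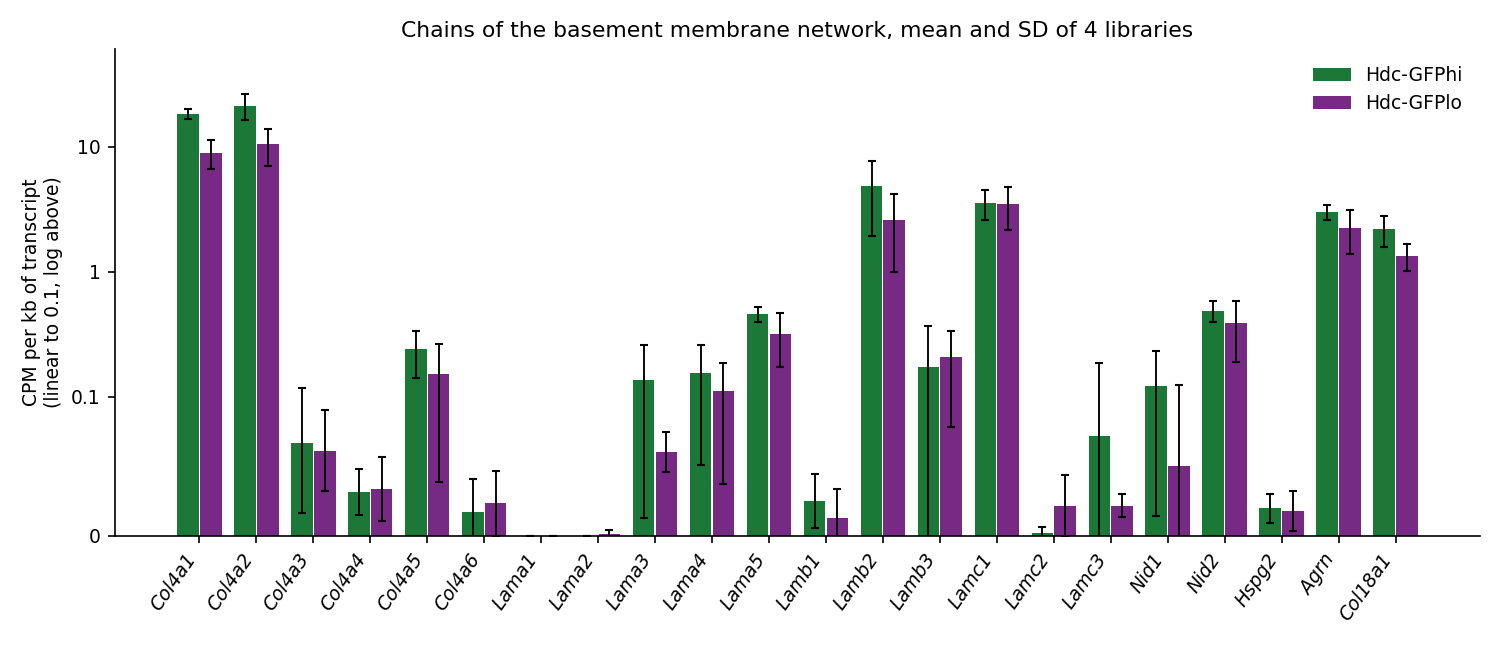
Mean level of type IV collagen, laminin and bridging chains in CPM per kb of transcript (linear up to 0.1, logarithmic above), with SD over the 4 libraries of each fraction. Col4a1 and Col4a2 reach 18.2 and 21.2 CPM per kb in Hdc-GFPhi, Lamb2 and Lamc1 are the highest laminin chains, and the means of the alpha chains stay at or under 0.46 in both fractions.

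The bridges between the networks were scarce. Nid1, nidogen-1, which ties laminin to collagen IV, had 18, 34, 13 and 0 reads in Hdc-GFPhi replicates 1 to 4 and 2, 3, 0 and 19 in Hdc-GFPlo replicates 1 to 4. Each fraction held 1 library with no read, and Hdc-GFPlo replicate 4 had more reads than 3 of the 4 Hdc-GFPhi libraries. The log2 fold change of 1.24 had an interval of -1.01 to 3.49, and it was 3.0 without Hdc-GFPlo replicate 4. Nid2, its relative, was at 2.36 ± 0.451 and 1.89 ± 0.966 CPM (adjusted p = 0.856 in edgeR). Hspg2, perlecan, a large heparan sulfate proteoglycan, had 7, 6, 10 and 2 reads in Hdc-GFPhi and 10, 7, 1 and 2 in Hdc-GFPlo, which was below the filter. Agrn, agrin, the other large heparan sulfate proteoglycan of basement membranes, was at 21.8 ± 3.01 and 16.3 ± 6.21 CPM (log2 fold change 0.42 ± 0.26, adjusted p = 0.645 in edgeR). With Hdc-GFPlo replicate 3 left out its log2 fold change was 0.19, and with Hdc-GFPhi replicate 4 left out too it was 0.14.

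Bgn and Dcn encode biglycan and decorin, closely related small leucine-rich proteoglycans that bind fibrillar collagens and growth factors. Bgn was at 16.2, 32, 20.7 and 16.8 CPM in Hdc-GFPhi and at 8.72, 13.8, 8.97 and 11 CPM in Hdc-GFPlo. The groups did not overlap, with Hdc-GFPhi replicate 2 far above the others of its group. The difference was 2.02-fold (log2 fold change 1.02 ± 0.24, interval 0.50 to 1.53), and it was 0.76 with Hdc-GFPhi replicate 2 left out. Bgn did not pass the adjusted threshold in edgeR but did with DESeq2 and with limma voom. Dcn had a single read per fraction, in Hdc-GFPhi replicate 3 and in Hdc-GFPlo replicate 2, under the floor of 3 counts, so no fold is given.

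Sparc encodes a collagen-binding protein that acts in collagen deposition, and it was low. It had 37, 67, 19 and 16 reads in Hdc-GFPhi and 40, 10, 25 and 12 in Hdc-GFPlo. The groups overlapped over most of their range, and the highest library was again Hdc-GFPhi replicate 2. The log2 fold change was 0.53 (interval -0.67 to 1.72) and was -0.04 without that library. It was 0.91 with both Hdc-GFPhi replicate 4 and replicate 3 of Hdc-GFPlo left out.

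Fn1, fibronectin, the adhesive glycoprotein bound by integrins alpha 4 and alpha 5 on progenitors, was the member with the opposite direction. It was at 10.2, 11.7, 9.26 and 8.6 CPM in Hdc-GFPhi and at 20, 30.9, 5.76 and 34.4 CPM in Hdc-GFPlo. The Hdc-GFPhi libraries lay close together, while Hdc-GFPlo replicate 3 was the lowest of all 8 and the other 3 Hdc-GFPlo libraries were the highest. The means were 9.93 ± 1.35 and 22.8 ± 12.9 CPM, a 2.29-fold lower level in Hdc-GFPhi (log2 fold change -1.20 ± 0.39, interval -2.05 to -0.34). Leaving out Hdc-GFPlo replicate 3 gave a log2 fold change of -1.5, leaving out its replicate 4 gave -0.93, and with the GC content and length trend removed it was -1.23. Fn1 did not pass the adjusted threshold with all libraries, but did with Hdc-GFPlo replicate 3 left out, alone or with Hdc-GFPhi replicate 4 (log2 fold change -1.44).

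Per kb, the order of the members in Hdc-GFPhi was Col4a2 (21.2 ± 4.96), Col4a1 (18.2 ± 1.70), Bgn (8.86 ± 3.02), Lamb2 (4.81), Lamc1 (3.54), Fn1 (1.19 ± 0.162), Sparc (0.689), Nid1 (0.122), Hspg2 (0.0198) and Dcn. In Hdc-GFPlo, Fn1 at 2.74 ± 1.55 CPM per kb came above Lamb2. These SD are spreads between libraries and do not measure a difference between genes read in the same libraries. Within libraries, the ratio of Col4a1 to Col4a2 per kb was 0.69 to 1.02, as given above. The order of Lamb2 and Lamc1 changed between libraries (8.83 and 2.86 CPM per kb in Hdc-GFPhi replicate 2, 4.67 and 4.95 in Hdc-GFPhi replicate 1). Averaged over the fractions, Col4a1 stood above 53.4% and Col4a2 above 57.4% of tested genes per kb, Bgn above 36.8% and Fn1 above 19.9%. Nid1 stood above 0.335% of them.

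The libraries ranked alike for several members. Hdc-GFPhi replicate 2 was the highest Hdc-GFPhi library for 7 of the 8 tested members, all but Lamc1. Hdc-GFPlo replicate 3 was the lowest Hdc-GFPlo library for 6 of the 8, all but Bgn and Sparc. The share of all tested genes that ranked in this way was not computed. These libraries also lay at the ends of the second principal component of all tested genes (39.15 and -40.52), so the ranks are not particular to the members. The genes whose log2 CPM over the 8 libraries was most like that of Col4a1 (Pearson r, given without a test because all libraries share the same 2 fractions) were Xkr5 (0.992), Syne2 (0.989), Fam115a (0.989), Clstn3 (0.983) and Chrnb1 (0.977). Syne2 encodes a giant nuclear envelope protein, Clstn3 a calsyntenin and Chrnb1 a subunit of the muscle acetylcholine receptor. Syne2 was at 151, 153, 155 and 134 CPM in Hdc-GFPhi and at 113, 112, 80.5 and 113 CPM in Hdc-GFPlo, with the same low value in Hdc-GFPlo replicate 3. For comparison, r with Col4a1 was 0.95 for Col4a2, 0.86 for Bgn, 0.75 for Lamb2 and 0.60 for Nid1. It was 0.46 for Lamc1, 0.20 for Sparc and -0.09 for Fn1. In the same order, 99.8%, 97.7%, 93.3%, 84.9%, 76.9%, 61.4% and 45.3% of tested genes had a lower r.

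Among other basement membrane components, no gene passed the threshold, but most had a positive difference. Of 26 genes, 12 were tested, 0 were called in either direction in edgeR, and 3 had an unadjusted p under 0.05, as did 10.9% of all tested genes. DESeq2 called 1 of them, Tinagl1, and limma voom none. A positive log2 fold change was found for 11 of the 12, with a median of 0.61, beside 49.9% positive and a median of 0.00 over all tested genes. Col4a5, Lama3, Lama4, Lamb3 and Npnt had only 37 to 138 reads summed over a fraction. Col4a5, Lama3, Lama4, Lama5, Agrn and Col18a1 have transcripts of at least 5000 bases, the class that was low in Hdc-GFPlo replicate 3 (median log2 deviation -0.23). The median of the list without that library was not computed. Agrn is given above. Tinagl1, a laminin-binding matrix protein related to cathepsins, was at 14.4, 19.6, 13.8 and 17.8 CPM in Hdc-GFPhi and at 8.54, 11.8, 11.7 and 9.99 CPM in Hdc-GFPlo, without overlap (log2 fold change 0.65 ± 0.18, adjusted p = 0.144 in edgeR). Smoc1, a calcium-binding matrix protein of the SPARC family, was at 14.4 ± 1.47 and 9.58 ± 3.36 CPM (0.58 ± 0.23, adjusted p = 0.363 in edgeR).

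**Figure D3:**
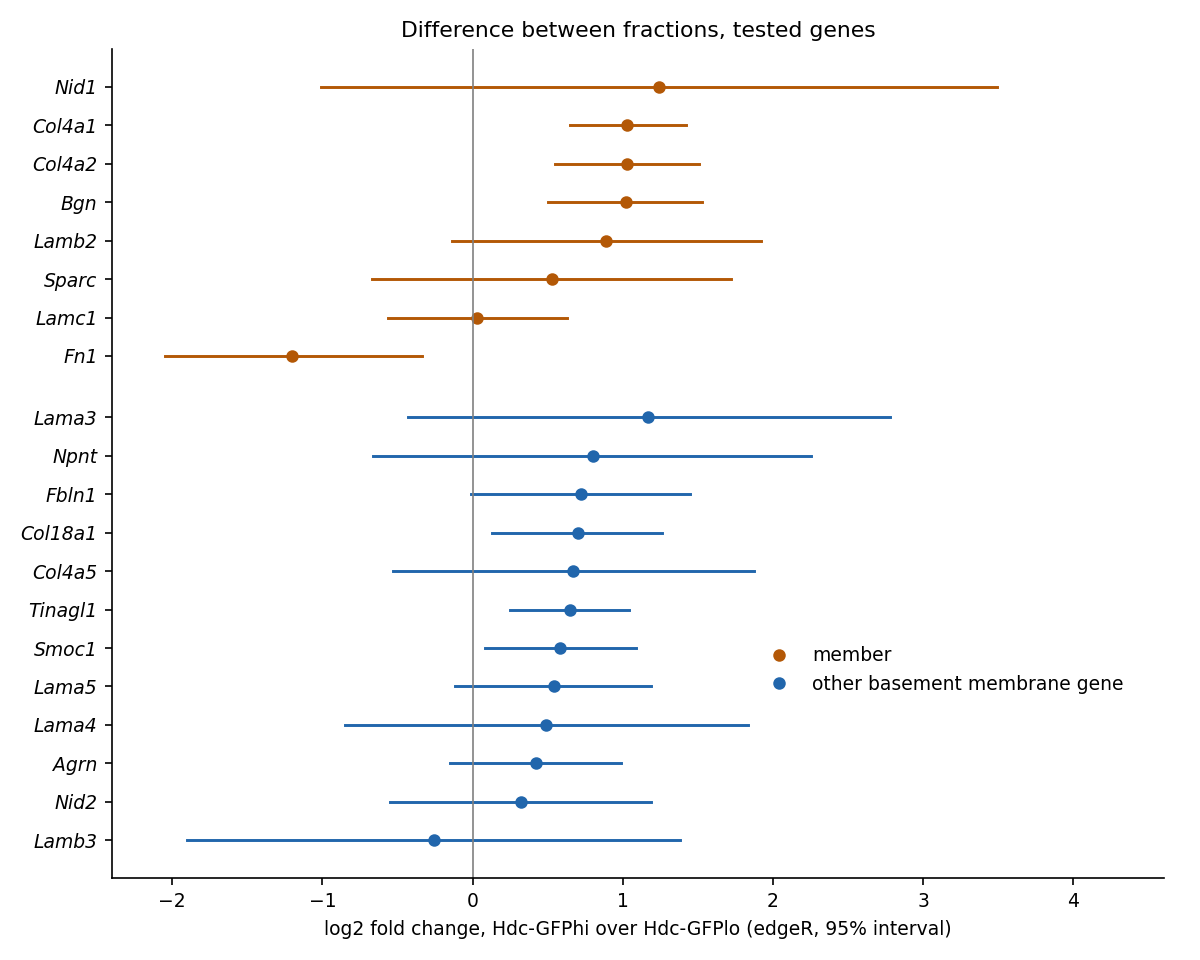
Log2 fold change of Hdc-GFPhi over Hdc-GFPlo with 95% interval from edgeR for the 8 tested members (orange) and the 12 other tested basement membrane genes (blue), positive where Hdc-GFPhi is higher. Col4a1, Col4a2 and Bgn lie near 1, Fn1 at -1.20, and Nid1, with few reads, has the widest interval of those drawn.

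The genes that modify and fold collagen chains had a small median log2 fold change, 0.11. Of 24 genes, 19 were tested, 1 was called higher and none lower, and 12 log2 fold changes were positive and 7 negative. An unadjusted p under 0.05 in edgeR was found for 3, against 10.9% of all tested genes. Among these, and chosen after their values were seen, were Fkbp10, at 3.88 ± 1.55 and 1.91 ± 0.881 CPM (log2 fold change 1.02 ± 0.41, adjusted p = 0.36 in edgeR), and Leprel4, at 7.05 ± 1.21 and 4.74 ± 1.28 CPM (0.58 ± 0.24, adjusted p = 0.397 in edgeR). Leprel2, a prolyl 3-hydroxylase of collagen, rose from 30.3 ± 2.22 CPM in Hdc-GFPlo to 44.7 ± 4.09 CPM in Hdc-GFPhi (log2 fold change 0.56 ± 0.12, adjusted p = 0.0476 in edgeR, higher in 4 of 4 libraries than in any Hdc-GFPlo library). No fit that left out 1 library called it (adjusted p 0.0505 to 0.201 in edgeR). P4hb, the shared subunit of prolyl 4-hydroxylase and a disulfide isomerase of all secretory proteins, was at 692 ± 66.4 and 641 ± 31.3 CPM (log2 fold change 0.11 ± 0.09). Glt25d1, a collagen galactosyltransferase, was at 175 ± 21.3 and 185 ± 20.5 CPM (-0.09 ± 0.12). Pxdn and Lox, which crosslink collagen IV and fibrillar collagens, had at most 3 reads in any library.

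Of 28 receptors for matrix, 19 were tested, 1 was lower and none higher, with a median log2 fold change of 0.17. An unadjusted p under 0.05 in edgeR was found for 8 of the 19, against 10.9% of all tested genes. Among these, and chosen after their values were seen, were the laminin receptor genes Itga6, at 122 ± 13 and 86.5 ± 19 CPM (log2 fold change 0.49 ± 0.15, adjusted p = 0.204 in edgeR), and Bcam, at 42.1 ± 17.3 and 23.7 ± 8.74 CPM (0.83 ± 0.28, adjusted p = 0.242 in edgeR). Sdc1, chosen in the same way, was lower in Hdc-GFPhi, at 21.2 ± 4.89 and 31.7 ± 3.53 CPM (-0.58 ± 0.17, adjusted p = 0.172 in edgeR). So were Sdc4 and Cd44, given next. The syndecan Sdc4, a heparan sulfate proteoglycan that works with integrins on fibronectin, was at 14.3, 21.6, 10.2 and 13 CPM in Hdc-GFPhi and at 44.9, 38.5, 29.2 and 26.1 CPM in Hdc-GFPlo. It fell in Hdc-GFPhi without overlap between the groups (log2 fold change -1.23 ± 0.24, adjusted p = 0.0279 in edgeR). Leaving out 1 library ended this call for 3 of Hdc-GFPhi (replicates 1, 3 and 4) and 2 of Hdc-GFPlo (replicates 1 and 2), with adjusted p values of 0.061 to 0.112 in edgeR. Leaving out both Hdc-GFPhi replicate 4 and replicate 3 of Hdc-GFPlo gave 0.0817. Itgb1, the beta chain of most collagen, laminin and fibronectin receptors, was at 427 ± 24.9 and 407 ± 24.5 CPM (0.07 ± 0.09), and the hyaluronan receptor Cd44 at 236 ± 22.9 and 293 ± 15 CPM (-0.31 ± 0.10, adjusted p = 0.201 in edgeR).

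No matrix protease, protease inhibitor or interstitial matrix gene was called in edgeR. Of 27 proteases and inhibitors, 18 were tested, with a median log2 fold change of 0.14. An unadjusted p under 0.05 in edgeR was found for 6, against 10.9% of all tested genes. These 6 went both ways: Mmp17, Timp2 and Bmp1 were higher in Hdc-GFPhi, and Mmp8, Mmp9 and Hpse were lower. DESeq2 called 2, Mmp17 and Timp2, both higher. Timp2, an inhibitor of matrix metalloproteinases, was at 69.2 ± 11.1 and 47.8 ± 8.58 CPM (log2 fold change 0.53 ± 0.15, adjusted p = 0.162 in edgeR). The neutrophil collagenase gene Mmp8 was at 46.8 ± 10.3 and 66.3 ± 9.36 CPM (-0.50 ± 0.16, adjusted p = 0.225 in edgeR), and the lysosomal protease gene Ctsb at 325 ± 30.2 and 310 ± 9.9 CPM. Of 34 interstitial matrix genes, 19 were too low to test, 6 of these had no read at all, and the 15 tested had a median of 0.10, with 1 unadjusted p under 0.05 in edgeR. DESeq2 called 1, Fstl1, a secreted relative of SPARC, at 75.7 ± 18.3 and 47.1 ± 10.8 CPM (0.69 ± 0.19, adjusted p = 0.128 in edgeR). The elastic fibre proteins Emilin1, at 269 ± 69.7 and 238 ± 64.3 CPM, and Emilin2, at 23.9 ± 3.44 and 18.9 ± 6.77 CPM, had intervals that included 0.

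**Figure D4:**
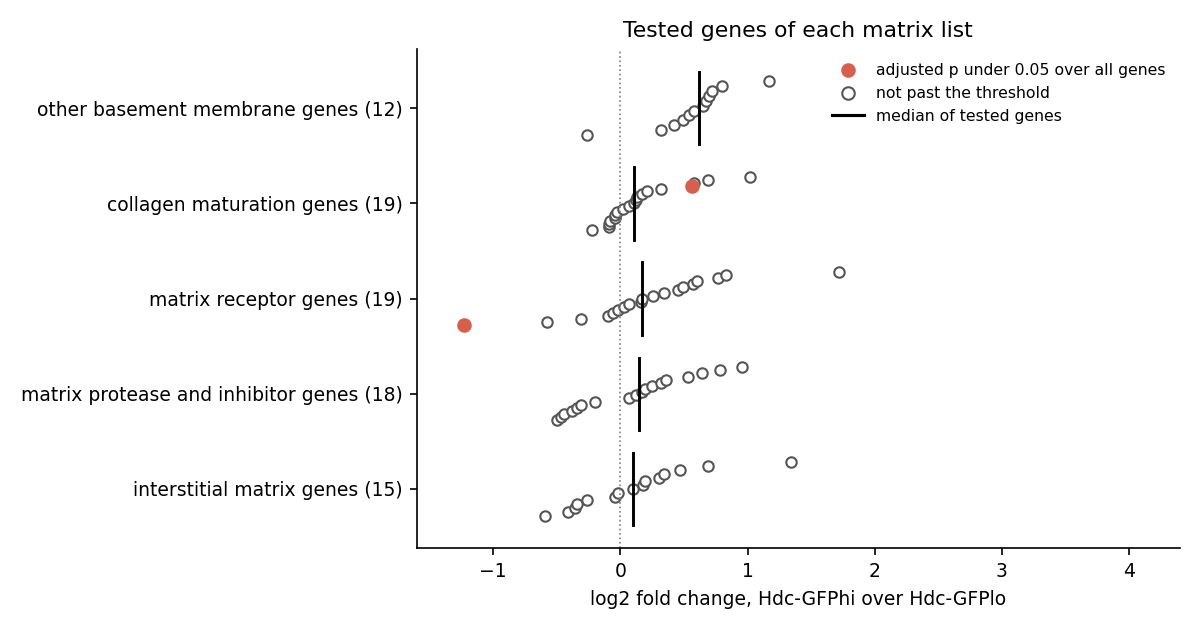
Log2 fold changes of the tested genes in 5 lists of matrix genes other than the members, with a line at each list's median; the number of tested genes stands in brackets. Filled points passed an adjusted p of 0.05 over all genes, namely Leprel2 at 0.56 and Sdc4 at -1.23, and the other basement membrane genes have the highest median, 0.61.

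Markers of the cells that make most marrow matrix were measured beside these results. Of 17 mesenchymal stroma markers, 12 were below the filter, and the defining markers were near 0: summed over the 4 libraries of Hdc-GFPhi and of Hdc-GFPlo, Lepr had 1 and 3 reads, Pdgfra 12 and 1, and Col1a1 28 and 29. Cxcl12 was at 1.90 ± 0.571 and 1.13 ± 0.607 CPM. The summed level of the list was 61.4 to 95.3 CPM in Hdc-GFPhi and 65.4 to 133 CPM in Hdc-GFPlo, nearly all from Pdgfrb, and 7.22 to 9.75 and 8.55 to 16.7 CPM without it. Much of that remainder in Hdc-GFPlo came from Alpl, alkaline phosphatase, chosen after its values were seen, at 1.68 ± 1.03 and 8.05 ± 4.42 CPM (adjusted p = 0.0593 in edgeR; called with DESeq2). With Alpl left out as well, the sums ranged from 5.46 to 7.39 and from 4.25 to 5.48 CPM, so the direction turned. The part of these markers in the results was not tested.

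Of 16 endothelial markers, 13 were tested and 0 were called in edgeR, with 5 at an unadjusted p under 0.05 (10.9% of all tested genes were). The median log2 fold change was 0.24, with 7 positive and 6 negative. The vascular cadherin Cdh5 had 12 and 15 reads in all, Kdr was at 1.13 ± 0.671 and 1.71 ± 0.822 CPM, and Stab2, of sinusoids, at 1.14 ± 0.687 and 2.08 ± 2.14 CPM. Emcn, which stem cells also express, was at 48.2 ± 5.3 and 40.9 ± 5.69 CPM. The groups did not overlap for 3 markers of the list, each higher in Hdc-GFPhi and named after their values were seen: the receptor genes Tie1, at 109 ± 14.7 and 63.2 ± 19.4 CPM (adjusted p = 0.0886 in edgeR), Tek, at 51.1 ± 15.8 and 28.1 ± 9.97 CPM (0.173), and Eng, at 158 ± 27 and 120 ± 17.5 CPM (0.289). DESeq2 called Tie1 and Tek, and limma voom called Tie1. These genes are also expressed by stem cells, and their part in the collagen difference was not tested. The summed level was 645 to 885 CPM in Hdc-GFPhi and 592 to 813 CPM in Hdc-GFPlo. Its largest part, Egfl7, also named after its values were seen, went the other way. It was at 207 ± 31.6 and 260 ± 34.1 CPM (log2 fold change -0.33 ± 0.13, adjusted p = 0.357 in edgeR).

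Of the megakaryocyte and platelet markers, 15 are reported here, and their summed level moved with Col4a1, Col4a2 and Bgn. It was 258 to 298 CPM in Hdc-GFPhi and 162 to 228 CPM in Hdc-GFPlo, so the groups did not overlap. The largest parts of the sum were Mmrn1, at 85.6 ± 12 and 67.3 ± 9.17 CPM, and Itga2b, given below. Both were singled out after their values were seen. All 13 reported markers with enough reads had a positive log2 fold change, 5 of them with an unadjusted p under 0.05 in edgeR. Over all tested genes these shares were 49.9% and 10.9%. Gp6 was at 0 in every library. None of the defining markers was called, and Gp9 alone of them had groups that did not overlap: Pf4 was at 8.24 ± 4.31 and 6.25 ± 3.04 CPM, Ppbp at 1.19 ± 0.405 and 0.885 ± 0.538 CPM, Gp1bb at 2.02 ± 1.27 and 1.71 ± 0.849 CPM, and Gp9 at 23.4 ± 2.27 and 17.6 ± 3.61 CPM. Other markers of the list differed more, and are named after their values were seen. Itga2b, which stem cells also express, was at 79.4 ± 11.7 and 48.3 ± 12.9 CPM (adjusted p = 0.0862 in edgeR), Gp5 at 11.3 ± 3.12 and 6.23 ± 2.38 CPM (0.254), and Gp1ba at 7.47 ± 1.6 and 4.6 ± 0.626 CPM without overlap (0.216). DESeq2 called Itga2b, and limma voom called none of the 15. The part of these markers in the difference of the collagen genes was not tested. Of 12 macrophage markers, 0 were called in edgeR, with 1 at an unadjusted p under 0.05, and their sum was 494 to 528 CPM in Hdc-GFPhi and 568 to 622 CPM in Hdc-GFPlo. Most of that sum was Lyz2, the lysozyme gene of myeloid cells (398 ± 17 and 446 ± 43.7 CPM), and without Lyz2 and Csf1r (22.1 ± 7.16 and 47.6 ± 22.2 CPM), both singled out after their values were seen, the ranges were 89.7 to 104 and 83.1 to 99.5 CPM. A positive log2 fold change was found for 7 of the 12, DESeq2 called Csf1r, and limma voom called none. C1qa was at 1.97 ± 0.797 and 1.55 ± 0.286 CPM, Emr1 at 5.30 ± 1.61 and 5.58 ± 2.58 CPM and Cd163 at 20.7 ± 1.45 and 23.9 ± 2.94 CPM.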

How the data were processed

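Whole-number read counts per gene symbol, not normalized, were deposited by the authors for 8 libraries. The tools named in the submitters' processing notes are TopHat2 (2.04), Bowtie2, HTSeq 0.6.1 and bcl2fastq 1.8.4, and the build is mm9. The sources used here do not give their roles, the annotation, the strand setting or the treatment of multiply mapped reads. Per the labels' protocols, RNA was amplified with a SMARTer kit and libraries were made with Nextera XT. There are no molecular identifiers, and the floors on counts cover counting error only. The 95% intervals of log2 fold changes come from the edgeR fit and include the spread between libraries.

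Genes passing filterByExpr (13300 of 23284) were scaled by TMM and tested with edgeR 4.0.16 (quasi-likelihood, robust, no covariate, R 4.3.3), with Benjamini-Hochberg adjustment over all tested genes. SE and 95% intervals come from that fit, with log2 CPM at a prior count of 2. Transcript lengths and GC content are those of the longest coding transcript in GENCODE M21 (GRCm38), matched for 98.8% of tested genes. No coordinates of mm9 are used. No pair of libraries in a fraction agreed within sampling noise (chi-square per degree of freedom at least 13.8).

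Members and lists were chosen with earlier results of these data known. The rule for named genes was all members, up to 4 called genes of each list (with the highest mean CPM added until 3 were named), defining and called markers, and the 5 genes most like Col4a1, predicted genes left out. Alternatives were other scalings, filters, DESeq2 1.42.0, limma 3.58.1 voom, a block on the replicate number, a fit that was not robust, a split of replicates 1 and 2 from 3 and 4, and left-out libraries. Removal of a trend on GC content and length was added after seeing the data. 1 gene of the marker lists is not reported here, and the levels and counts given leave it out.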

Additional observations from a re-analysis of the deposited data

Results flagged for a closer look

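In 7 of 86 groups of 4 libraries, 1 library stood apart from the other 3 on the log2 CPM scale (gap over range above Dixon's 95% critical value for 4 samples). Chance flags about 1 in 20 groups, here 4.3, a figure for independent groups, which genes measured in the same libraries are not. Col4a1 in Hdc-GFPlo replicate 3 was at 5.17, with the other Hdc-GFPlo libraries at 5.98 to 6.09. Syne2 in the same library was at 6.33, with the others at 6.81 to 6.82. It was named for its likeness to Col4a1, so it is not a separate observation. In Hdc-GFPhi replicate 2, Agrn was at 4.13 (others 4.52 to 4.59), Timp2 at 6.42 (5.97 to 6.02) and Emcn at 5.81 (5.50 to 5.52). Glt25d1 in Hdc-GFPhi replicate 4 was at 7.16 (others 7.51 to 7.57), and Emr1 in Hdc-GFPlo replicate 2 was at 3.25 (others 2.07 to 2.22).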

How the results depend on the processing

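All called genes numbered 126 (25.4% of them higher in Hdc-GFPhi), 404 with DESeq2 (40.3% higher), 278 with voom (35.6%), 275 with a covariate that split replicates 1 and 2 from 3 and 4 (30.5%), 268 after removal of the GC and length trend (39.6%), and 52 to 146 with 1 library left out (52 without Hdc-GFPlo replicate 1 and 68 without Hdc-GFPhi replicate 3). The causes were not tested. Called members numbered 2 in the main analysis and 0 to 2 with 1 library left out, with 0 when Hdc-GFPhi replicate 3 or replicate 1 of Hdc-GFPlo was the one left out. They numbered 3 with DESeq2, voom, the covariate and the trend removed (Bgn added in each), and 3 when both Hdc-GFPhi replicate 4 and replicate 3 of Hdc-GFPlo were left out (Fn1 added). Col4a1, Col4a2, Bgn, Lamb2, Nid1 and Fn1 kept their direction under all alternatives that gave a value (none for Nid1 at the filter of 50 counts), while Sparc did not when 1 library was left out, nor Lamc1 then, with voom (-0.08), with the trend removed (-0.02) or with both libraries left out (-0.10).

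Called collagen maturation genes went from 1 to 0 with upper-quartile factors, no filter, both of those libraries left out, the trend removed and every single library left out. Called receptors went from 1 to 2 with DESeq2 and the covariate (Sdc1 added in each, lower in Hdc-GFPhi). They went to 3 with the trend removed (Sdc1, lower, and Itga6, higher, added), 0 with both libraries left out and 0 to 1 with 1 left out. DESeq2 called 1 other basement membrane gene, 2 proteases or inhibitors and 1 interstitial gene, and the trend removal called 1 protease inhibitor. Small log2 fold changes changed sign: Emr1 was at 0.05 with voom, and with 1 library left out Emr1 ranged from -0.21 to 0.30, Ly6a from -0.03 to 0.16, Gp1bb from -0.17 to 0.57, Stab2 from -1.31 to 0.15 and Glt25d1 from -0.13 to 0.00.

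With the replicate number as a block (replicate block), 224 genes were called (37.5% higher), 3 members (Bgn added), 2 receptors (Bcam added), 1 interstitial gene (Fstl1) and 0 collagen maturation genes. Same-numbered libraries correlated at 0.076 to 0.347 in their deviations from the fraction mean and not every library correlated best with its own number, so the numbers were not taken to pair the samples. The fractions did share a coarser split by replicate number. Between fractions, all correlations within replicates 1 and 2, or within 3 and 4, were positive (0.062 to 0.347). All correlations across that split were negative (-0.262 to -0.062). The main fit has no term for the split, and the fit with it as a covariate is given above. Its cause was not tested. Depth limits Nid1, Hspg2, Sparc and Dcn, where a few reads set each value.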
